A study of Mus musculus with 6 samples.

Results

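Cxcl1, Cxcl2, Cxcl3 and Cxcl5 encode mouse chemokines of the ELR-type CXC class, which attract neutrophils. They were taken by symbol from a table of read counts for bone marrow-derived macrophages, and all 4 were found among its 46095 genes. The family was chosen by symbol with its read counts in both genotypes, and the contrast between them, already in view, so that the genotype values of these 4 transcripts are a description and no p-value is given for them. The samples were 3 libraries from Cd226-/- C57BL/6 mice, which lack the activating adhesion receptor CD226 (DNAM-1), and 3 libraries from wild-type (WT) C57BL/6 mice, all aged 56 days. Marrow of both genotypes was grown for 7 days with M-CSF at 20 ng/ml, the growth factor that turns marrow progenitors into macrophages. The cells then received IFN-γ at 20 ng/ml together with LPS at 100 ng/ml for 24 h, a stimulus known to give M1-type macrophages. No unstimulated library was used here, and whether replicates are separate mice or cultures is not given in the sources used here. The p-values therefore measure only the spread between these libraries, which may be technical.

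Chemokines of this class carry the amino acids glutamate, leucine and arginine just before the paired cysteines, and they act through the receptors CXCR2 and CXCR1 on neutrophils. In macrophages LPS acts through TLR4 and NF-kB to switch the genes on quickly. Their mRNAs are known to be short-lived where the 3′ untranslated region (UTR) holds AU-rich elements, which proteins such as tristetraprolin (Zfp36) bind to speed decay. Cxcl1 is also known as KC or Gro1, Cxcl2 as MIP-2, Cxcl3 as DCIP-1 and Cxcl5 as LIX.

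In GRCm38 the 4 genes lie on the plus strand of chromosome 5 within 147 kb. Cxcl5 is at 90759298 to 90761625, Cxcl3 at 90786101 to 90788093, Cxcl1 at 90891245 to 90893121 and Cxcl2 at 90903899 to 90905938 in RefSeq's annotation. Each has 4 exons in its main GENCODE transcript. RefSeq's promoter table matched 3 of the 4 members. The 250 bases before their start sites (GRCm38.p6) are printed to show 1 element that these 3 promoters share, with matches to the NF-kB consensus in capitals. Any part of this element in the values of these libraries was not tested.
Cxcl1 promoter (chr5:90890995-90891244, plus strand): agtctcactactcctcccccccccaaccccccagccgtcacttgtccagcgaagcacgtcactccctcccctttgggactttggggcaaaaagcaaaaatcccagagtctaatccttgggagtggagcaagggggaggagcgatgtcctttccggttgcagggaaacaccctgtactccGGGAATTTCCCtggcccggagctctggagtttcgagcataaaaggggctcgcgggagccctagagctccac
Cxcl2 promoter (chr5:90903649-90903898, plus strand): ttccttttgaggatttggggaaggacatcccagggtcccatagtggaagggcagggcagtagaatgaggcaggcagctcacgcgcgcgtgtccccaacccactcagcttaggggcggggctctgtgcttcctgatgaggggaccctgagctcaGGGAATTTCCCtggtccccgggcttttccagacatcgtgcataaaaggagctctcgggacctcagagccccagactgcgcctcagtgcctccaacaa
Cxcl3 promoter (chr5:90785851-90786100, plus strand): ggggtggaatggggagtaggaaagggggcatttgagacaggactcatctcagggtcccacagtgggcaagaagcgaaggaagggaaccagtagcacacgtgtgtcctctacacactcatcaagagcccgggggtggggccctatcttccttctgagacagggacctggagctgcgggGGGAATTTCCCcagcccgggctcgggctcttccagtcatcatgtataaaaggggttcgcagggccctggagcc
The same 11 bases, GGGAATTTCCC, stood in each of the 3 promoters, beginning 71 bases before the start of Cxcl1, 97 before that of Cxcl2 and 73 before that of Cxcl3. The 11 bases hold 2 overlapping matches to the NF-kB consensus, 1 on each strand. The distances are to RefSeq starts and depend on that choice. For Cxcl2 the main GENCODE transcript begins at 90903873, before the RefSeq start at 90903899. Of 27025 promoters of the same length, searched on both strands, 7.01% had at least 1 match to the consensus and 11 (0.0407%) held these 11 bases. The 11 bases were taken from the 3 promoters shown, so the 0.0407% is not an independent background. The 3 promoters were 74.3% to 79.7% identical over aligned bases. A match describes the sequence only, and binding was not measured in these libraries.

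The members differed in the AU-rich pentamer ATTTA of their 3′ UTRs, read on the transcript strand. Over the first 592 bases after the stop codon, the length of the shortest of the 4 UTRs, Cxcl2 had 9 pentamers, Cxcl1 7, Cxcl3 4 and Cxcl5 1. Among 7599 other tested genes with a 3′ UTR at least that long, 0.0132% had as many as Cxcl2, 0.224% as many as Cxcl1, 4.26% as many as Cxcl3 and 54.5% as many as Cxcl5. The low count of Cxcl5 belongs to this window: over the whole UTR, of 1111 bases in Cxcl5 and 645 in Cxcl3, both had 5 pentamers, while Cxcl2 had 11 in 734 bases. The overlapping form ATTTATTTA occurred 3 times in that window of Cxcl2 and 2 times in that of Cxcl1, and was in no part of the Cxcl3 or Cxcl5 UTR. Of the other genes, 2.04% held it. The 29 bases with the most pentamers are shown for each member to let these differences be seen, with the pentamers in capitals.
Cxcl1 (chr5:90892603-90892631, plus strand): agggtcctATTTATTTAtgtATTTATTTA
Cxcl2 (chr5:90905328-90905356, plus strand): ATTTATTTAtctatgtATTTATTTATTTA
Cxcl3 (chr5:90787630-90787658, plus strand): aagatggcatcttATTTAatgtttATTTA
Cxcl5 (chr5:90760635-90760663, plus strand): gcttcctgctcatctcacaagtgtATTTA

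Sequence likeness also bears on the counts. Coding sequences of Cxcl2 and Cxcl3 were 89.8% identical, and 74.8% to 79.0% was found for the other pairs. Stretches of 50 bases that occur unchanged in another gene's transcript made up 5.75% of those in Cxcl2 and 6.31% of those in Cxcl3, each shared with the other gene. The share was 3.08% in Cxcl5, with genes outside the chemokine family, and in Cxcl1 0 of 904 such stretches were shared. How reads from the shared stretches were assigned is not given in the sources used here. At even coverage they would make up 105 to 132 of the Cxcl2 reads in Cd226-/- libraries and 331 to 461 in WT libraries, against whole Cxcl3 counts of 56 to 138 in Cd226-/- libraries and 187 to 286 in WT libraries. The uncertain part is thus small for Cxcl2 but could be large for Cxcl3.

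Total counts ranged from 16925955 to 18867799 in Cd226-/- libraries and from 16838527 to 21658061 in WT libraries. Cd226-/- replicate 1 stood apart from replicates 2 and 3, with a chi-square per degree of freedom of 7.61 and 7.76 against them, where replicates 2 and 3 had 2.17 against each other and pairs of WT libraries 3.79 to 6.32. Member values are therefore also given without it. Cd226 itself had 11, 10 and 8 counts in Cd226-/- libraries, against 5, 17 and 23 in WT libraries. The groups overlapped, and the counts are too few to check the genotype labels (log2 fold change -0.50 ± 0.50 (SE), adjusted p = 0.480). The defining macrophage markers were abundant and moved in both directions. Adgre1, encoding F4/80, averaged 2370 ± 30.7 CPM in Cd226-/- and 1980 ± 139 CPM in WT, whereas Csf1r, the M-CSF receptor gene, averaged 1160 ± 20.8 CPM in Cd226-/- and 1420 ± 29.5 CPM in WT (SD, n = 3 each). Itgam, encoding CD11b, averaged 2050 ± 54.3 CPM in Cd226-/- and 2540 ± 116 CPM in WT. These 3 were named after their values were seen.

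All 4 chemokine transcripts were lower in Cd226-/- macrophages, at 0.227 to 0.472 times the WT level. In each case the 3 Cd226-/- libraries lay below the 3 WT libraries, as they did for 22.3% of the 13215 genes tested (22.1% had all 3 Cd226-/- libraries above). In the edgeR fit over all genes the number of members called lower at an adjusted p under 0.05 was 4, and 3 without Cd226-/- replicate 2 or without WT replicate 2, where Cxcl3 was lost. Called lower were 14.8% of the genes tested, with 16.1% called higher and 30.9% in either direction. Since this contrast was in view when the members were chosen, nothing is read from those counts. In bulk RNA, fewer cells that make a transcript and less of it per cell cannot be told apart.

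Cxcl2, the most abundant member, had 127, 109 and 119 CPM (counts scaled to library size by TMM) in Cd226-/- replicates 1 to 3, against 362, 336 and 362 CPM in WT replicates 1 to 3. The highest Cd226-/- library reached 37.6% of the lowest WT library. Means were 118 ± 8.78 CPM in Cd226-/- and 353 ± 14.8 CPM in WT (SD, n = 3 each), a log2 fold change of -1.58 ± 0.057 (SE). It rests on 26672 counts in all and was -1.63 without Cd226-/- replicate 1.

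Cxcl1 was the steadiest member among Cd226-/- libraries. It had 47.3, 45.4 and 47.8 CPM in Cd226-/- libraries, against 108, 122 and 111 CPM in WT libraries. The coefficient of variation was 2.72% in Cd226-/- and 6.60% in WT, and the gap between the groups was wider than either spread. The log2 fold change was -1.27 ± 0.060 (SE), and -1.28 without Cd226-/- replicate 1.

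Cxcl5 had the largest fold difference of the 4. Its level was 5.51, 5.10 and 5.83 CPM in Cd226-/- libraries, against 23.6, 19.4 and 29.4 CPM in WT libraries. The Cd226-/- values were close together, whereas WT replicates were spread more widely, with replicate 3 highest and replicate 2 lowest. The log2 fold change was -2.14 ± 0.14 (SE), 0.227 times the WT level, and 12 of the 13215 tested genes had a more negative value. That rank is a description only, since the members were chosen with this contrast in view. Without Cd226-/- replicate 1 the log2 fold change was -2.15.

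Cxcl3 was the least even. It had 3.09, 6.06 and 7.52 CPM in Cd226-/- replicates 1 to 3, from 56, 101 and 138 counts, against 10.2, 12.0 and 12.9 CPM in WT replicates 1 to 3, from 187, 206 and 286 counts. Replicate 1 was the lowest Cd226-/- library, and the 95% exact Poisson interval of its count (42.3 to 72.7, counting error only) did not reach that of replicate 3 (116 to 163). The coefficient of variation was 40.7% in Cd226-/- and 11.7% in WT. Its log2 fold change of -1.08 ± 0.26 (SE) became -0.79 without Cd226-/- replicate 1 and -1.92 when Cd226-/- replicate 1 alone was set against WT. It was -1.15 without Cd226-/- replicate 2 and -1.07 without WT replicate 2.

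**Figure D1:**
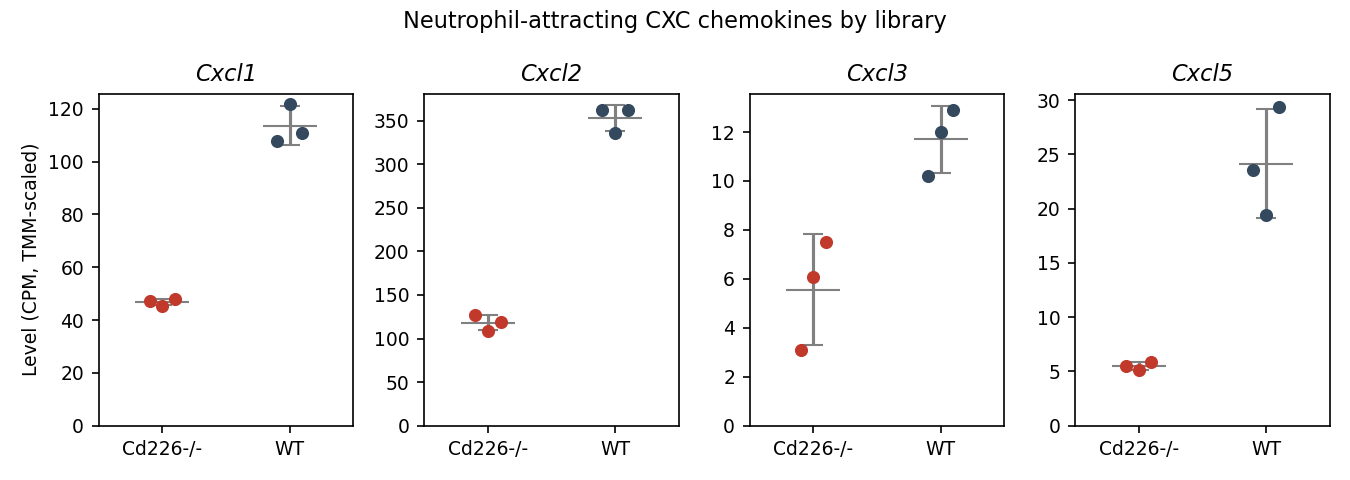
Level of each chemokine transcript in TMM-scaled CPM (vertical axis, linear and starting at 0, with its own scale in each panel) in the 3 Cd226-/- libraries (red, left) and the 3 WT libraries (dark blue, right); points are libraries in the order of replicates 1 to 3, and the grey bar and whiskers are the mean ± SD. In every panel the Cd226-/- points lie below the WT points, with the nearest approach in Cxcl3 (7.52 CPM in Cd226-/- and 10.2 CPM in WT).

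Levels of different genes were compared per length of transcript. Cxcl2 averaged 63.6 ± 4.72 CPM per kb in Cd226-/- and 190 ± 7.99 CPM per kb in WT, and Cxcl1 49.1 ± 1.34 in Cd226-/- and 119 ± 7.86 in WT (SD, n = 3 each). Cxcl2 was above Cxcl1 in each of the 6 libraries, also when the shorter main transcript of Cxcl2 was used for its length (106 CPM per kb in Cd226-/- and 318 in WT). Cxcl3 and Cxcl5 were far below both. In Cd226-/- libraries Cxcl3 averaged 5.47 ± 2.22 CPM per kb and Cxcl5 3.48 ± 0.233, and their single values overlapped, at 3.04 to 7.40 for Cxcl3 and 3.24 to 3.70 for Cxcl5. In WT libraries Cxcl3 averaged 11.6 ± 1.35 CPM per kb and Cxcl5 15.3 ± 3.21, again with overlap (10.1 to 12.7 for Cxcl3 and 12.3 to 18.7 for Cxcl5). Library by library, Cxcl5 was above Cxcl3 in 1 of 3 Cd226-/- libraries and in 3 of 3 WT libraries, with values of 12.3 and 11.8 CPM per kb for Cxcl5 and Cxcl3 in WT replicate 2.

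Together the 4 transcripts took 0.0173% ± 0.00085 of all counts in Cd226-/- libraries and 0.0512% ± 0.0014 in WT libraries (SD, n = 3 each). The mixture changed less than the total. As a share of summed CPM per kb, Cxcl1 made up 40.0% to 41.2% in Cd226-/- and 33.9% to 38.4% in WT, without overlap. Cxcl2 made up 50.8% to 54.8% in Cd226-/- and 54.3% to 58.5% in WT, which overlapped. The share of Cxcl5 was 2.80% to 2.95% in Cd226-/- and 3.70% to 5.45% in WT, without overlap. That of Cxcl3 was 2.44% to 5.91% in Cd226-/- and 3.03% to 3.71% in WT, with the widest range among Cd226-/- libraries. The ratio of Cxcl2 to Cxcl1 was 1.29 ± 0.0709 in Cd226-/- and 1.61 ± 0.163 in WT (SD, n = 3 each). These shares and ratios depend on the length taken for Cxcl2. With its shorter main transcript, a choice added after the data were seen, the ratio was 2.17 ± 0.118 in Cd226-/- and 2.69 ± 0.279 in WT, and the Cxcl2 share was 63.4% to 67.0% in Cd226-/- and 66.6% to 70.3% in WT.

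**Figure D2:**
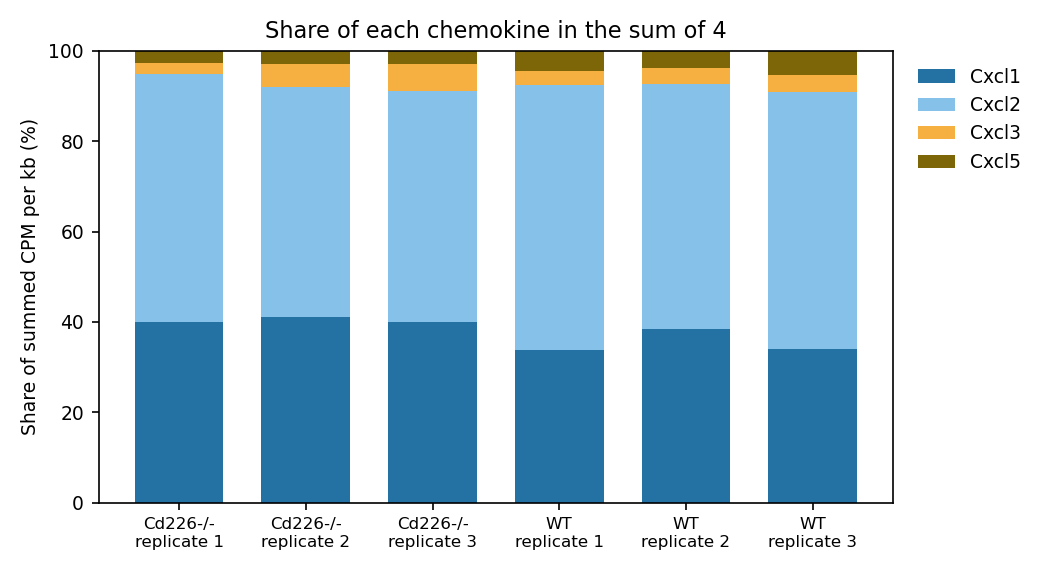
Share of each chemokine in the sum of the 4, as a percentage of summed CPM per kb (vertical axis), for each library; each bar is 1 library and each colour 1 gene. Cxcl2 and Cxcl1 fill most of every bar, and the Cxcl5 segment is 2.80% to 2.95% in the Cd226-/- bars and 3.70% to 5.45% in the WT bars.

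The remaining ELR chemokine genes and the receptors were hardly detected. Ppbp, a platelet ELR chemokine gene, had 5 counts over the 6 libraries, and Cxcl15, an ELR chemokine gene of lung epithelium, was listed at 0. Pf4, encoding platelet factor 4, which lies in the same cluster but lacks the ELR motif, had 1.54, 4.74 and 3.60 CPM in Cd226-/- libraries, against 3.73, 5.14 and 5.20 CPM in WT libraries. These values overlapped, and the difference missed the threshold (-0.52 ± 0.31 (SE) on the log2 scale, adjusted p = 0.236). It passed without Cd226-/- replicate 2 (-0.87, adjusted p = 0.0364) and was -0.18 without Cd226-/- replicate 1 (range of adjusted p over all alternatives 0.000622 to 0.563). Cxcr2, encoding the main receptor of these chemokines, had 5 counts in all 6 libraries together and Cxcr1 had 1. Among decoy receptors, which take up chemokines without signalling but do not all bind the ELR class, Ackr1 had 9 counts and Ackr2 5. The 4 receptor genes were too low to be tested.

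Other chemokine genes moved in both directions. Of the 3 ligands of CXCR3, the receptor of activated T cells, 2 rose and 0 fell in edgeR (3 rose and 0 fell at an unadjusted p under 0.05 and by DESeq2, 2 and 0 by limma-voom). Cxcl9 averaged 1510 ± 102 CPM in Cd226-/- and 1200 ± 96.2 CPM in WT (SD, n = 3 each), a 1.26-fold rise (adjusted p = 2.80e-04). Cxcl11 rose 3.48-fold (adjusted p = 0.0246). Cxcl10 missed the threshold (0.82 ± 0.24 (SE) on the log2 scale, adjusted p = 0.0683), but passed by DESeq2 (adjusted p = 0.00245; 0.0586 to 0.476 under the other alternatives). Among left-out libraries, the call of Cxcl11 was lost without Cd226-/- replicate 2 (adjusted p = 0.0853), Cd226-/- replicate 3 (0.0754) or WT replicate 1 (0.0678), and when Cd226-/- replicate 1 alone was set against WT (0.259; range over all alternatives 1.48e-05 to 0.259). Of 4 other CXC chemokines, the stromal chemokine Cxcl12 rose 4.82-fold and Cxcl14, an epithelial and fibroblast chemokine, fell (log2 fold change -1.49 ± 0.16 (SE), adjusted p = 3.93e-07). Cxcl16, named after its values were seen, had 19.9, 47.7 and 41.2 CPM in Cd226-/- libraries, against 19.1, 17.0 and 18.3 CPM in WT libraries. It missed the threshold (adjusted p = 0.129) and passed without Cd226-/- replicate 1 (log2 fold change 1.29, adjusted p = 2.29e-12; range over all alternatives 2.29e-12 to 0.547). Without WT replicate 3, and with no filter on low counts, 2 of the 4 fell, the second being the B cell chemokine gene Cxcl13.

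Among 11 tested CC chemokines, which attract chiefly monocytes and lymphocytes, 4 rose and 1 fell (2 fell without WT replicate 3, with no filter on low counts and when Cd226-/- replicate 1 alone was set against WT), with a median log2 fold change of 0.20, against -0.0045 over all tested genes. Ccl5 (RANTES) rose 1.52-fold, Ccl12 1.85-fold, Ccl8 1.83-fold and Ccl22 1.5-fold, with adjusted p of 4.78e-04 or below. The lowest fitted value of a tested CC chemokine was -0.35, and each of the 4 ELR members lay below it. This describes the values only. Ccl17, on the same list and named after its values were seen, was too low to be tested. It had 4, 3 and 0 counts in Cd226-/- libraries, against 6, 5 and 11 in WT libraries.

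**Figure D3:**
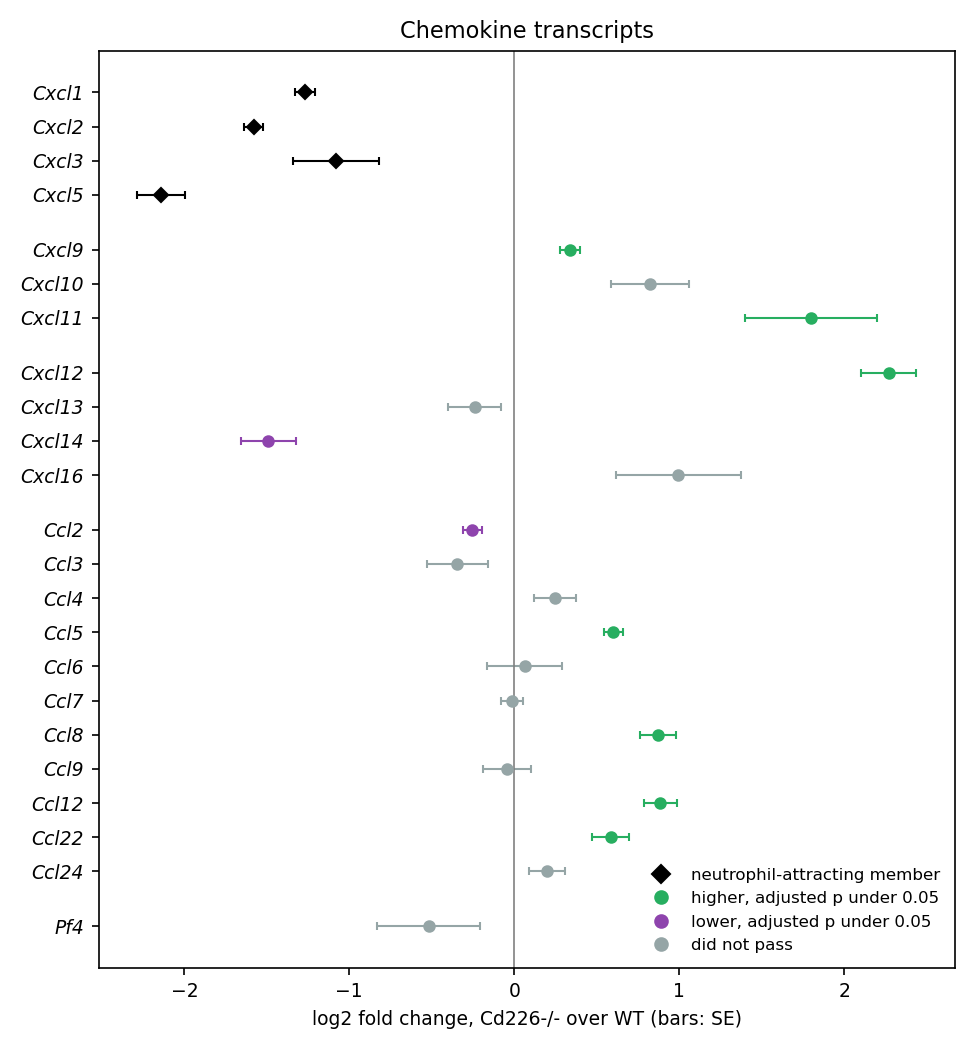
log2 fold change of Cd226-/- over WT (horizontal axis) with its SE for tested chemokine genes; black diamonds are the 4 neutrophil-attracting members, green and purple circles are genes with an adjusted p under 0.05 that were higher or lower, and grey circles did not pass. The 4 members lie between -2.14 and -1.08, and Cxcl14 is the 1 other gene shown at a value below -1.

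The chromosome 5 cluster was then examined with the genes around it. RefSeq places 23 other genes within 500 kb of the members, of which 20 are in the count table, 7 could be tested, 2 fell and 0 rose (3 fell and 0 rose at an unadjusted p under 0.05, and 2 and 0 by DESeq2 and by limma-voom). Both that fell lie downstream of Cxcl2. Mthfd2l, a mitochondrial folate enzyme gene, had 1.54, 2.16 and 1.91 CPM in Cd226-/- libraries, against 3.40, 4.21 and 3.39 CPM in WT libraries (log2 fold change -0.97 ± 0.25 (SE), adjusted p = 0.00442). Ereg, encoding the epidermal growth factor receptor ligand epiregulin, had 4.69, 4.50 and 4.68 CPM in Cd226-/- libraries, against 9.26, 9.88 and 6.74 CPM in WT libraries (log2 fold change -0.89 ± 0.17 (SE), adjusted p = 3.08e-04). The groups did not overlap for either gene. The amphiregulin gene Areg, next to Ereg, was near the detection limit and missed the threshold (-0.0040 ± 0.51 (SE) on the log2 scale, adjusted p = 0.997), while Epgn and Btc had 6 and 16 counts in all. Upstream of Cxcl5, Ankrd17, a broadly used gene with 19268 counts, missed it too (0.019, adjusted p = 0.801), as did Afp, the alpha-fetoprotein gene (-0.45, adjusted p = 0.0840). The albumin gene Alb, which lies between them, had 266 and 279 counts in Cd226-/- replicates 2 and 3 and was listed at 0 in Cd226-/- replicate 1 and in the 3 WT libraries; it had reads in too few libraries to be tested. Ankrd17, Afp and Alb were named after their values were seen.

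**Figure D4:**
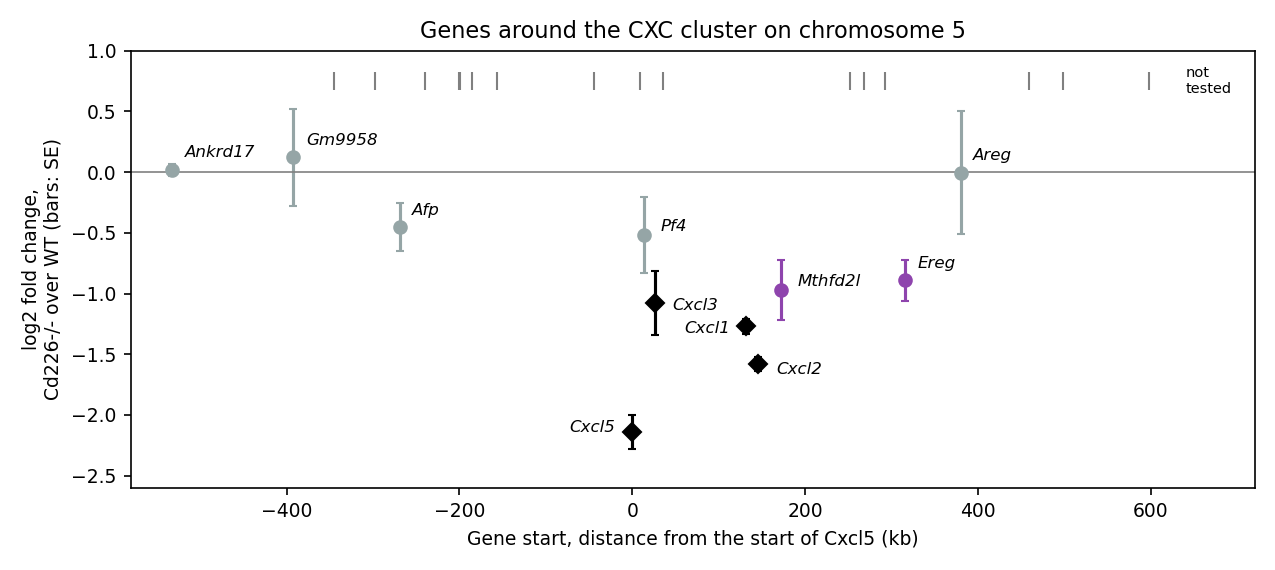
log2 fold change of Cd226-/- over WT with its SE (vertical axis) by distance of each gene's start from that of Cxcl5 (horizontal axis, kb) for tested genes on chromosome 5 within 500 kb of the members; black diamonds are members, purple circles passed and were lower, grey circles did not pass, and ticks at the top mark genes not tested. The 4 members, Mthfd2l and Ereg lie between -2.14 and -0.89, and genes on the Cxcl5 side lie between -0.45 and 0.12.

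The pathway that leads from LPS to these genes was described from lists of its components. TLR4 and IL-1 receptor signalling held 20 tested genes, of which 3 rose and 6 fell (median log2 fold change -0.015). Tlr4, the LPS receptor, had 154, 144 and 155 CPM in Cd226-/- libraries, against 211, 239 and 212 CPM in WT libraries (log2 fold change -0.55 ± 0.056 (SE), adjusted p = 1.36e-07). Its co-receptor Cd14 fell too (-0.37 ± 0.052 (SE), adjusted p = 8.63e-06). The kinase gene Irak2 and the adaptor gene Ticam2 rose 1.24-fold and 1.22-fold, with adjusted p of 3.09e-04 or below. The number that fell was 3 or 4 whichever single library was left out, 3 by DESeq2, and 3 to 7 over all alternatives.

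Transcripts of NF-kB and co-operating transcription factors had fitted values between -0.29 and 0.33 on the log2 scale, with a median of 0.058. Of 23 tested, 6 rose and 2 fell. The activity of these factors was not measured. The IkB inhibitor genes Nfkbie and Nfkbib rose 1.26-fold and 1.25-fold, as did Hif1a, the hypoxia factor gene, by 1.21-fold, all with adjusted p of 7.36e-04 or below. Ikbkg, the regulatory subunit of the IkB kinase, fell (-0.29 ± 0.054 (SE), adjusted p = 2.58e-04), but not when Cd226-/- replicate 1 alone was set against WT (-0.16, adjusted p = 0.0620; range over all alternatives 1.58e-07 to 0.0620). The subunit genes Rela and Nfkb1, named after their values were seen, did not pass (0.071 and 0.084, adjusted p = 0.332 and 0.237). Leaving out Cd226-/- replicate 3 or any 1 WT library left 1 fall, and leaving out Cd226-/- replicate 1 gave 3, the range over all alternatives being 1 to 3.

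Factors that bind or regulate AU-rich mRNAs numbered 18 tested, with 5 rises, 1 fall and a median log2 fold change of 0.077. Zfp36, encoding tristetraprolin, had 189, 150 and 148 CPM in Cd226-/- libraries, against 120, 118 and 122 CPM in WT libraries, a 1.35-fold rise (adjusted p = 0.00129) with replicate 1 the highest. Mapkapk2, the kinase MK2 that phosphorylates tristetraprolin, rose 1.29-fold (adjusted p = 4.04e-06), and the RNase family gene Zc3h12d also 1.29-fold (adjusted p = 0.00706). Zc3h12a, encoding the RNase regnase-1, fell (-0.37 ± 0.053 (SE), adjusted p = 1.30e-05). Without WT replicate 1 or WT replicate 3 the rises numbered 3, and without Cd226-/- replicate 1 the falls numbered 2. The balance of the list turned with the scaling, to 3 rises and 4 falls with library size alone, which shifted the median of all genes to -0.058. Over all alternatives 3 to 7 rose and 1 to 4 fell.

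Other products that recruit or mobilise neutrophils, with receptors that guide them, did not share a direction: of 14 tested 5 rose and 4 fell (median log2 fold change 0.093). Il6 fell (31.4 CPM in Cd226-/- and 44.1 CPM in WT on average; log2 fold change -0.49 ± 0.096 (SE), adjusted p = 8.47e-04), as did Alox5ap, of leukotriene synthesis (-0.27 ± 0.048 (SE)). The formyl peptide receptor genes Fpr2 and Fpr1 rose 1.24-fold and 1.18-fold, with adjusted p of 0.00117 or below. Lcn2, encoding the siderophore-binding protein lipocalin 2 and named after its value was seen, rose 2.87-fold, to 725, 1030 and 964 CPM in Cd226-/- libraries, against 308, 337 and 303 CPM in WT libraries. Csf3, the gene of the neutrophil growth factor G-CSF, and Il1b did not pass (-0.21 and 0.098, adjusted p = 0.204 and 0.211, both also named after their values were seen). Tnf was listed at 0 in all 6 libraries, and whether the cells lacked it or the counting missed it was not tested. Without Cd226-/- replicate 2 or WT replicate 2 the falls numbered 2. Over all 10 pathway lists, 43 of 97 tested genes were called (44.3%), 26 higher and 17 lower, against 30.9% of all tested genes. Since the lists were chosen with earlier results of these data known, nothing is read from that difference.

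**Figure D5:**
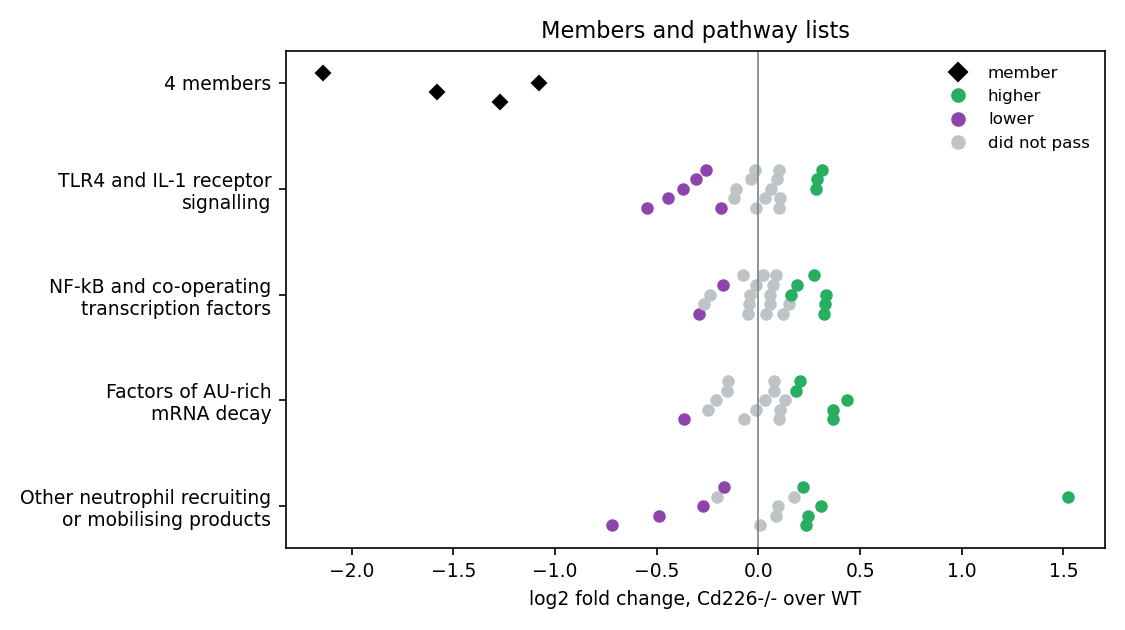
log2 fold change of Cd226-/- over WT (horizontal axis) for the 4 members (black diamonds, top) and for the tested genes of 4 pathway lists; green and purple circles were higher or lower with an adjusted p under 0.05, grey circles did not pass, and vertical offsets within a row only separate the points. Genes of the first 3 lists stay between -0.55 and 0.43, and other neutrophil recruiting or mobilising products between -0.72 and 1.52. The members, chosen with this contrast in view, lie at or below -1.08.

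Markers of other cells that make or answer these chemokines were read beside them. Of 13 neutrophil and precursor markers 4 were tested, and 0 rose and 0 fell in edgeR (1 fell at an unadjusted p under 0.05 and by DESeq2, 0 by limma-voom; 1 rose without WT replicate 2 and 1 fell without WT replicate 3). Their summed level was 73.9 to 81.8 CPM in Cd226-/- and 73.0 to 90.6 CPM in WT, mostly S100a8. The defining markers Ly6g and Mpo had 11 and 1 counts in all 6 libraries. Of 7 tested stromal markers 5 rose. The other 2 did not pass, and both had negative fitted values, the lower at -0.40 on the log2 scale. Outside this list the stromal chemokine gene Cxcl12 rose (log2 fold change 2.27). The epithelial and fibroblast chemokine gene Cxcl14 and the collagen gene Col12a1 fell (-1.49 and -1.5). The list and these genes thus showed no common direction. The sum of the stromal markers was 771 to 803 CPM in Cd226-/- and 500 to 580 CPM in WT, Lum being near 0. B cell markers rose in 5 of 5 cases (sum 30.0 to 39.3 CPM in Cd226-/- and 12.2 to 15.1 CPM in WT), and endothelial markers in 2 of 3 (sum 20.6 to 25.2 CPM in Cd226-/- and 13.6 to 15.3 CPM in WT, with Emcn at 0; 1 of 3 without Cd226-/- replicate 1 or WT replicate 3). The part of these cells in the chemokine values was not tested. Of 8 macrophage markers 4 rose and 3 fell. Among mast cell or basophil markers 1 of 4 rose and 1 fell (0 rose without Cd226-/- replicate 2 or WT replicate 1). Of 4 dendritic cell markers 1 rose, but 2 without Cd226-/- replicate 1 and 0 without Cd226-/- replicate 3, WT replicate 1 or WT replicate 2. Of the T or NK cell (3 tested), megakaryocyte (1) and epithelial (0) markers, 0 passed in either direction, also at an unadjusted p under 0.05, by DESeq2 and by limma-voom.

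The genes whose pattern over the 6 libraries was nearest to the mean of the members were sought among 9065 genes of at least 5 CPM. The distance was Euclidean, between log2 CPM values centred on each gene's mean. Timp3, an inhibitor of matrix metalloproteinases, came first at 0.36, with 12.2, 11.9 and 12.1 CPM in Cd226-/- libraries, against 33.5, 29.5 and 31.2 CPM in WT libraries. Next were Mgst2, a microsomal glutathione transferase gene (0.37), Akr1b8, an aldo-keto reductase gene (0.38), Col12a1, a collagen gene (0.43), and Thbd, the thrombomodulin gene (0.43). For comparison, the members' own distances from their mean were 0.34 for Cxcl2, 0.44 for Cxcl1, 0.79 for Cxcl5 and 0.87 for Cxcl3. Likeness over 6 libraries of 2 genotypes is a description of the profile only.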

How the data were processed

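RNA sequencing libraries of stimulated bone marrow-derived macrophages were analysed, 3 from Cd226-/- and 3 from WT mice. The authors deposited whole-number read counts per gene symbol, not normalized. Reads were aligned with HISAT2 to GRCm38, per the submitters' processing notes. The counting tool, annotation, strand setting and treatment of multiply matching reads: not given in the sources used here. Columns were assigned by name. All 6 libraries differed by more than counting noise and were kept.

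Counts were fitted in R 4.3.3 with edgeR 4.0.16 (filterByExpr, TMM, two-sided quasi-likelihood test with robust dispersions and no covariate beside genotype). Benjamini-Hochberg adjustment covered 13215 genes. Each SE was obtained from a gene's F statistic and fitted change. CPM use TMM-scaled library sizes, and CPM per kb divide by the union of coding-transcript exons (GENCODE M21). The fits were checked on simulated data. Alternatives used DESeq2 1.42.0, limma-voom (limma 3.58.1), other scalings and filters, the replicate number as a block, and left-out libraries. Promoters come from RefSeq (GRCm38.p6), and 3′ UTRs from GENCODE transcripts. Sequences were aligned with Biopython 1.88.

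The members and lists were chosen with earlier results of these data known. Named genes were the members, all genes of the small chemokine, receptor and neighbour lists, up to 4 called genes with the smallest adjusted p per other list, Cd226 and the 5 nearest profiles; others are marked as named after their values were seen. Cell type markers are given as lists, with the 3 macrophage markers named after their values were seen and, from other lists, those at or near 0 or holding most of a sum.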

Additional observations from a re-analysis of the deposited data

How the results depend on the processing

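Each of the 4 chemokines was lower in Cd226-/- under all 14 alternatives. The log2 fold change stayed within 1 SD of replicates except when Cd226-/- replicate 1 alone was set against WT, which gave -1.48 for Cxcl2 and -1.92 for Cxcl3; the cause was not tested. When 1 library at a time was left out the ranges were -1.31 to -1.22 (Cxcl1), -1.63 to -1.52 (Cxcl2), -1.37 to -0.79 (Cxcl3) and -2.28 to -1.97 (Cxcl5). The ratio of summed CPM, 0.35, then ranged from 0.344 to 0.361. Over all genes, 2130 were called higher and 1956 lower (52.1% higher), against 1773 and 2764 (39.1% higher) with library size alone. Of pathway genes 17 were called lower, and 11 to 16 when 1 library was left out, the fewest without WT replicate 2. Of the 43 called pathway genes, 28 passed in every alternative that gave a value. Deviations from the genotype mean had correlations of 0.0105, -0.0128 and 0.0151 between same-numbered libraries, for numbers 1 to 3. These values cannot show whether same-numbered libraries shared a culture or preparation, which is not given in the sources used here. With the replicate number as a block, 4137 genes were called, against 4086 without it, 44 of the pathway genes against 43, and the members had log2 fold changes of -1.27 (Cxcl1), -1.58 (Cxcl2), -1.12 (Cxcl3) and -2.13 (Cxcl5). The block ended the call of Cxcl11 (adjusted p = 0.0959; 1.48e-05 to 0.259 over all alternatives), and with it 2 CC chemokines fell, against 1 without it, and 3 mRNA decay factors, against 1. Counts limit Cxcl3 and Cxcl5 most, with 974 and 1705 in all.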
